A study of Mus musculus with 9 samples.

Results

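Endothelial leukocyte adhesion molecules were followed here as 5 genes, the selectins Sele and Selp and the immunoglobulin-type molecules Icam1, Icam2 and Vcam1. They were taken by symbol from a table of 52550 genes counted in the ear dermis of 9 mouse libraries, and all 5 were among the 22430 genes with enough counts for testing. All mice were C57BL/6 by the labels, C57BL/6J by the study's methods, with a genotype written as "wide type", read here as wild type, and were 8 weeks old. VAS+H2O was the control group, with vaseline on the ear for 5 days and 200 µl of ddH2O by gavage for 10 days. IMQ+H2O, the psoriasis-like model, had imiquimod cream on the ear for 5 days and the same gavage of ddH2O. IMQ+XYF had imiquimod cream for 5 days and 200 µl of the herbal decoction Xiao-Yin-Fang (XYF) at 23.3 mg/g by gavage for 10 days. In all groups the gavage began 5 days before the ear application. The study's methods state gavage once daily, whereas its figure legend for the ear model states a more frequent gavage. Each group held 3 libraries. The labels do not say that the libraries came from separate animals, so p-values measure the spread between these libraries, which may be technical.

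Leukocytes leave the blood through a sequence of contacts with the vessel wall, mainly in postcapillary venules. Selectins on the endothelium bind sugar-bearing ligands on passing leukocytes and let them roll. ICAM and VCAM molecules then hold leukocyte integrins, which stops the cell and lets it crawl and cross the wall. Sele is made by activated endothelium. Selp is stored ready-made in endothelial granules and in platelets. Icam1 and Vcam1 are present at a low level on resting vessels and are induced by TNF, IL-1 and NF-kB signalling, and both are also made by other cells, such as keratinocytes and leukocytes for Icam1 and fibroblasts for Vcam1. Icam2 is held at a constitutive level on endothelium and lies largely at cell junctions. Imiquimod activates Toll-like receptor 7 and its cream on skin recruits neutrophils, which use these molecules to leave the blood.

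Total counts ran from 28756305 to 79836881 per library, and the 5 genes together took 13665 to 74517 counts of a library. The defining endothelial genes Pecam1, at 157 to 447 CPM (counts relative to the size of the library, with sizes adjusted by TMM factors), and Cdh5, at 79.2 to 225 CPM, were present in every library. The platelet genes Gp9, Gp5 and Gp6 were at or below 0.285 CPM in every library, where 3 counts correspond to 0.0376 to 0.104 CPM. Pf4 was at 23.9 to 55.7 CPM, Itga2b at 7.88 to 16.1, Gp1ba at 1.85 to 3.20 and Gp1bb at 1.60 to 3.50 CPM. Ppbp was at 0.0728 to 2.34 CPM and Treml1 at or below 0.472 CPM. Ear dermis also carried RNA of other tissue, with 8 keratinocyte genes summing to 2426 to 15263 CPM and 8 cartilage genes to 282 to 1769 CPM. In such bulk samples fewer cells of a type and less RNA per cell cannot be told apart, and the cell type that made each transcript was not measured.

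The selectin genes lie on chromosome 1 of GRCm38 on the plus strand, Sele (ENSMUSG00000026582) at chr1:164048234-164057677 and Selp (ENSMUSG00000026580) at chr1:164115264-164150026. Icam1 (ENSMUSG00000037405) spans chr9:21015985-21028817 on the plus strand. Icam2 (ENSMUSG00000001029) at chr11:106377656-106388075 and Vcam1 (ENSMUSG00000027962) at chr3:116109949-116129688 are on the minus strand. All are protein-coding genes. Selp overlaps the antisense transcript Gm16587 and the noncoding Gm16548 in its exons, whose counts reached at most 8.37% and 9.84% of those of Selp. The antisense transcripts Gm43109 at Vcam1 and Gm47079 at Icam1 stayed at or below 0.708% and 0.173%. Whether the counting used the strand is not given in the sources used here, and reads of Selp and its antisense neighbours may therefore be mixed.

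RefSeq promoter sequences on GRCm38.p6 were at hand for 3 of the 5 genes. They are the only ones shown, since none was at hand for Icam2 and Vcam1. The 250 bases before the RefSeq start are given 5′ to 3′, at chr1:164047984-164048233 for Sele, chr1:164115014-164115263 for Selp and chr9:21015690-21015939 for Icam1, all on the plus strand. Capitals mark matches to GGANNNTCC, a pattern chosen after the sequences were read and close to sites of NF-kB, or to TGANTCA, a form of the AP-1 site.

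Sele: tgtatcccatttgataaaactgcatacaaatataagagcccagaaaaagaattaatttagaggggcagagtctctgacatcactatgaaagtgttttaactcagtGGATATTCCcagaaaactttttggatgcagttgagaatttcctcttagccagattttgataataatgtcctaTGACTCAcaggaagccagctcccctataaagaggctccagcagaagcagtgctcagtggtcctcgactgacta
Selp: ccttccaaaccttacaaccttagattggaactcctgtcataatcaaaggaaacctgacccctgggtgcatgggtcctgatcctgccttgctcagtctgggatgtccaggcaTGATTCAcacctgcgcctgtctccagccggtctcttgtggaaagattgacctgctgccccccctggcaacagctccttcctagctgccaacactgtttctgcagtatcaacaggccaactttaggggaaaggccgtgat
Icam1: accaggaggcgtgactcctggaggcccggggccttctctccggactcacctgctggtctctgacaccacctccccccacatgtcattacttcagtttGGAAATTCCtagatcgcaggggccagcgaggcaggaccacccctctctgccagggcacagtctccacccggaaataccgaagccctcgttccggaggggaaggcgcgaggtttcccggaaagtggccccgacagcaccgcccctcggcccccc

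Both strands were searched, and each match reads as a match on either strand. Sele held GGATATTCC from base −145 to −137 counted back from the start, and Icam1 held GGAAATTCC from −153 to −145. This pattern occurred in 7.27% of the 32851 mouse promoters of that length. Sele further held TGACTCA from −73 to −67 and Selp held TGATTCA from −139 to −133, a pattern present in 6.75% of promoters. The NF-kB consensus had no match in the 3 sequences, against a match in 7.25% of promoters. A match describes letters in this window and was not tested as a binding site.

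Divided by exon length, Sele and Icam1 were the most abundant of the 5 transcripts and Icam2 and Vcam1 the least. The length joins the exons of all annotated transcripts, 8870 bases for Vcam1 and 1904 for Icam2, and which transcript was present was not measured. The order of Icam2 and Vcam1 depends on it, as the mean CPM of Vcam1 in IMQ+H2O was 28.8 against 16.8 for Icam2. In IMQ+H2O the order was Sele at 77.8 ± 7.97 CPM per kilobase (SD, n = 3), Icam1 at 60.8 ± 13.4, Selp at 39.0 ± 16.7, Icam2 at 8.83 ± 1.10 and Vcam1 at 3.25 ± 1.28. The ranges of Sele and Icam1 overlapped, as did those of Icam1 and Selp, whereas Selp, Icam2 and Vcam1 were separated from each other. In VAS+H2O Icam1 stood at 118 ± 77.1 CPM per kilobase, Sele at 90.9 ± 58.4, Selp at 37.1 ± 32.2, Vcam1 at 6.02 ± 4.02 and Icam2 at 4.68 ± 1.16, and every neighbour in this order overlapped with the next. In IMQ+XYF Icam1 was at 59.5 ± 9.93 CPM per kilobase and Sele at 57.5 ± 24.2, with overlapping ranges. There Selp at 23.9 ± 11, Icam2 at 6.96 ± 2.37 and Vcam1 at 2.46 ± 0.37 were again separated from each other.

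Sele, the endothelial selectin, was at 73.9, 400 and 320 CPM in VAS+H2O replicates 1 to 3, at 200, 237 and 242 CPM in IMQ+H2O, and at 178, 92.2 and 232 CPM in IMQ+XYF. The control libraries spanned the levels of both other groups. Selp was at 34.2, 316 and 141 CPM in VAS+H2O, at 108, 155 and 253 CPM in IMQ+H2O, and at 117, 52.2 and 147 CPM in IMQ+XYF. Its 3 groups overlapped as well, with the lowest and the highest of the 9 libraries both in the control group.

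Icam1, which binds the leukocyte beta2 integrins, was at 201, 869 and 468 CPM in VAS+H2O, at 205, 322 and 268 CPM in IMQ+H2O, and at 244, 226 and 308 CPM in IMQ+XYF. Vcam1, the ligand of the integrin alpha4beta1, was at 15.6, 86.4 and 58.3 CPM in VAS+H2O, at 20, 41.6 and 24.8 CPM in IMQ+H2O, and at 20.4, 19.5 and 25.6 CPM in IMQ+XYF. For both genes VAS+H2O replicates 2 and 3 were above every imiquimod library, and VAS+H2O replicate 1 was below every one of them. Icam2, a further ligand of the beta2 integrins, was at 6.72, 8.92 and 11.1 CPM in VAS+H2O, at 18.7, 17.2 and 14.6 CPM in IMQ+H2O, and at 15, 8.11 and 16.6 CPM in IMQ+XYF. Its IMQ+H2O libraries were all above the control libraries, and IMQ+XYF replicate 2 fell within the control range.

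**Figure D1:**
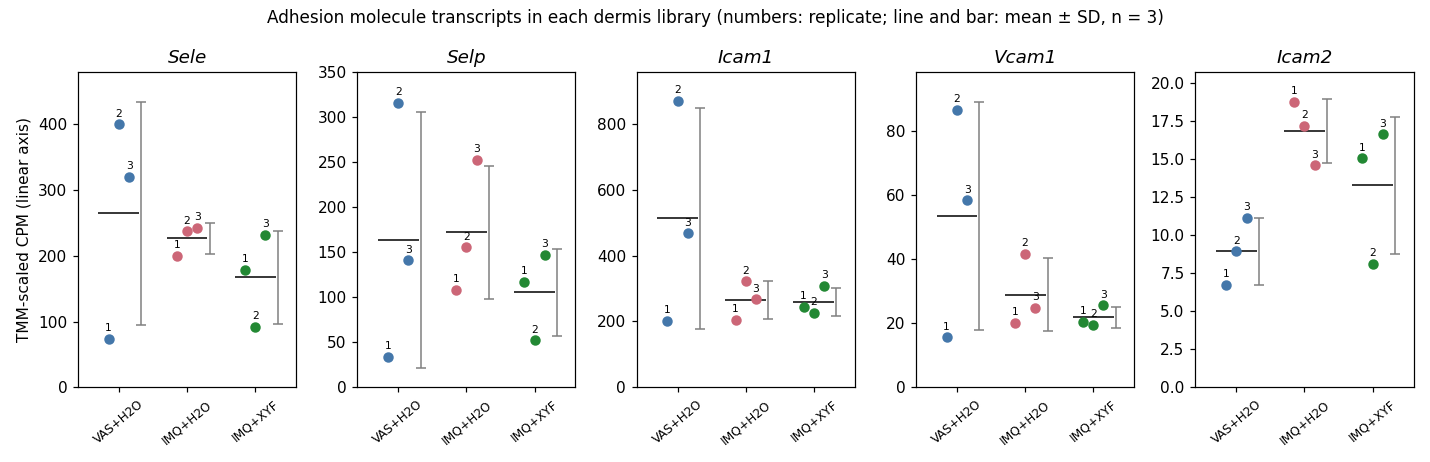
TMM-scaled CPM (linear axis) of the 5 genes in each of the 9 libraries, with 1 point per library numbered by replicate, and a line and bar for the mean ± SD of each group (n = 3). The control libraries of Sele, Selp, Icam1 and Vcam1 spread widely around those of the imiquimod groups, while for Icam2 the 3 IMQ+H2O points lie above the 3 control points.

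The spread among the control libraries was wide for 4 of the 5 genes. The highest control library held 5.41 times the level of the lowest for Sele, 9.23 times for Selp, 4.32 times for Icam1 and 5.53 times for Vcam1, but 1.65 times for Icam2. The median over all genes with at least 1 CPM was 1.30 times, and a spread as wide as that of these 4 genes was found in 0.659% to 2.62% of genes. VAS+H2O replicate 1 was the lowest control library for all 5 genes, and it was the lowest for 40.9% of all genes. In IMQ+H2O the same ratio was 1.21 for Sele, 2.34 for Selp, 1.57 for Icam1, 1.29 for Icam2 and 2.08 for Vcam1, around a median of 1.23 over all genes. In IMQ+XYF replicate 2 was the lowest library for all 5 genes, with ratios of 2.51 for Sele and 2.82 for Selp. The ratios were 1.37, 2.05 and 1.31 for Icam1, Icam2 and Vcam1, around a median of 1.37. The share of all genes that were lowest in IMQ+XYF replicate 2 was not counted.

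Some other transcripts moved with this spread. A list of 24 inducers and NF-kB feedback genes, such as Tnf, Il1b and Nfkbia, had a score of −0.84 in VAS+H2O replicate 1 against 0.17 and −0.20 in replicates 2 and 3, where the score is the mean log2 CPM of the listed genes, each centred over the 9 libraries. Scores of some other lists, though not of all, were also lowest in replicate 1 and highest in replicate 2 of VAS+H2O. They were −0.80, 0.54 and −0.15 for platelet, −4.0, −1.9 and −2.37 for neutrophil and −0.25, 0.52 and −0.039 for keratinocyte markers, and −0.56, −0.18 and −0.38 for integrin partners, in replicates 1 to 3. In VAS+H2O replicates 1 to 3 the pan-endothelial score, from 20 genes, was −0.53, −0.43 and 0.05, and the venular score was −0.65, −0.33 and −0.037. The lymphatic score was −0.32, 0.16 and 0.075 in these libraries, in the same order as Sele, Selp, Icam1 and Vcam1 for its lowest and highest library. In IMQ+XYF replicate 2 the pan-endothelial score was −0.78, the lowest of all libraries, and the inducer score was −0.39. The venular gene Ackr1, a chemokine-binding receptor of venules, was at 2.58 CPM there against 52.0 and 77.5 CPM in the other IMQ+XYF libraries. Ackr1 is also in the inducer list, so its low value is part of the inducer score of that library. The part of these differences in the values of the 5 genes was not tested.

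The first comparison asked what imiquimod changed, IMQ+H2O against VAS+H2O. None of the 5 genes passed as called, where a call needs a Benjamini-Hochberg adjusted p of at most 0.05 in edgeR's quasi-likelihood test and an absolute log2 fold change of at least 1. Over all tested genes 0.994% were called. The only gene of the 5 whose groups did not overlap was Icam2, from 8.92 ± 2.20 CPM in the control to 16.8 ± 2.10 CPM (SD, n = 3), against 31.5% of all genes without overlap, and it was also the only one with an unadjusted p under 0.05 in edgeR, against 20.9% of all genes. Neither count is above its background. DESeq2 and limma-voom called none of the 5 either, and DESeq2 called 3.88% of the genes it tested.

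Icam2 was 1.88-fold higher in IMQ+H2O, a log2 fold change of 0.91 (SE 0.28, 95% interval 0.27 to 1.55, adjusted p = 0.129, edgeR with Benjamini-Hochberg adjustment). Its level was higher in 3 of 3 imiquimod libraries than in any control. With DESeq2 its log2 fold change of 0.93 had an adjusted p of 0.0344, past the p limit but under the fold limit of a call. Across all alternatives the adjusted p of Icam2 ran from 0.0344 to 0.71.

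Icam1 had a mean of 513 ± 336 CPM in the control and 265 ± 58.5 CPM in IMQ+H2O, a log2 fold change of −0.95 (SE 0.44, 95% interval −1.95 to 0.04, edgeR adjusted p = 0.255). Vcam1, from 53.4 ± 35.7 to 28.8 ± 11.3 CPM, was at −0.89 (SE 0.52, −2.07 to 0.29, edgeR adjusted p = 0.36). For both genes the interval holds 0 and more than a halving of the level. The selectins were near 0 with wide intervals, Sele at −0.22 (SE 0.54, −1.44 to 0.99, edgeR adjusted p = 0.84) and Selp at 0.073 (SE 0.69, −1.50 to 1.65, edgeR adjusted p = 0.964). Differences inside these intervals were not detectable at this spread. The median log2 fold change of the 5 genes was −0.22, beside −0.023 over all tested genes.

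These values moved with single libraries. Without VAS+H2O replicate 2, Icam1 stood at −0.34, Vcam1 at −0.36, Sele at 0.20 and Selp at 0.97. Without VAS+H2O replicate 1 they were at −1.34, −1.33, −0.67 and −0.41. Sele was at −0.066 and Selp at −0.025 without VAS+H2O replicate 3, and leaving out IMQ+H2O replicate 3 or 1 gave −0.29 or 0.32 for Selp. Icam2 stayed between 0.74 and 1.10 whichever library was left out. No gene was called in any of these 9 fits.

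**Figure D2:**
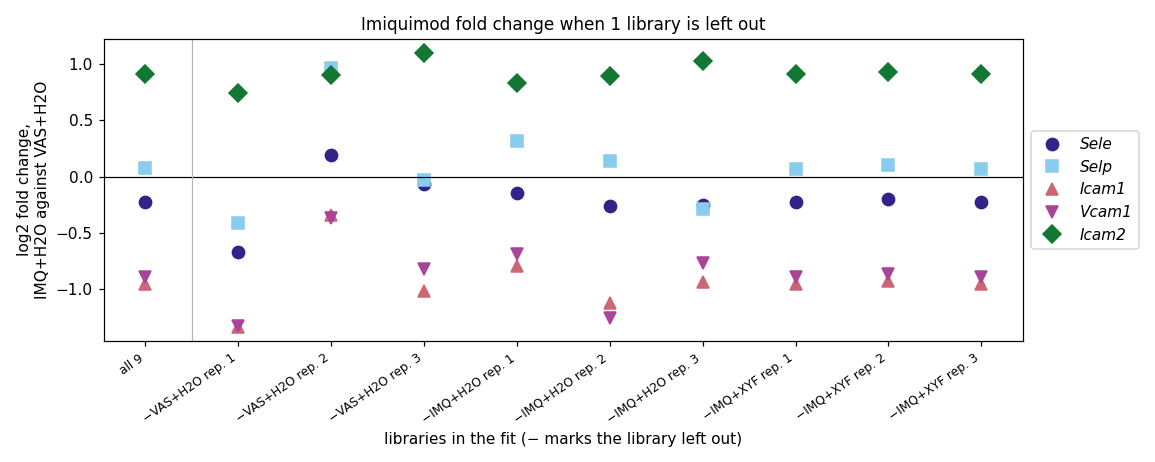
edgeR log2 fold change of IMQ+H2O against VAS+H2O for each gene, with all 9 libraries and with 1 library left out at a time (horizontal axis). Sele changes sign without VAS+H2O replicate 2 and Selp without VAS+H2O replicate 1 or 3 or IMQ+H2O replicate 3, those of Icam1 and Vcam1 run from −1.34 to −0.34 and from −1.33 to −0.36, and Icam2 stays between 0.74 and 1.10.

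Most endothelial markers had higher values after imiquimod. Of the 20 pan-endothelial markers, 1 was called, the endothelial surface protein gene Ecscr at 34.2 ± 6.05 against 89.2 ± 7.93 CPM (log2 fold change 1.38, SE 0.23, edgeR adjusted p = 0.0329). In all 12 were higher at an unadjusted p under 0.05, and 17 of 20 had groups without overlap, all higher, against 15.1% of all genes. Their median log2 fold change was 0.76, and their summed level was 1077 to 1649 CPM in the control and 2248 to 2361 CPM in IMQ+H2O. Of 8 venular markers, 2 were called higher, Lrg1 at 2.15 (SE 0.39, edgeR adjusted p = 0.0421), a secreted glycoprotein linked to vessel growth, and Plvap at 1.55 (SE 0.30, edgeR adjusted p = 0.049), which forms the diaphragms of fenestrated and venular endothelium. For both genes every IMQ+H2O library was above every control library.

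Set against this endothelial score, Icam2 differed between the groups by less than the spread, while Icam1 and Vcam1 lay further below the control. Icam2 minus the score was 3.44 ± 0.16 log2 units in the control and 3.58 ± 0.21 in IMQ+H2O (difference 0.14, exact two-sided permutation p = 0.4). Icam1 minus the score was lower in IMQ+H2O by 1.53 on the log2 scale with an exact permutation p of 0.1, the smallest p that 3 against 3 libraries allow. The differences were −1.43 for Vcam1 (exact permutation p = 0.2), −0.70 for Sele (exact permutation p = 0.4) and −0.30 for Selp (exact permutation p = 0.8). With the libraries of the edgeR fit scaled to the endothelial markers in place of TMM, Icam1 at −1.76 (adjusted p = 0.0266) and Vcam1 at −1.67 (adjusted p = 0.0361) were called lower. That scaling moved the median of all genes to −0.83 and called 18.4% of them, 96.3% of these lower. Relative to the moved median Icam1 was at −0.93, Vcam1 at −0.84 and Icam2 at 0.98, close to their values under TMM. Sele was at −0.15 and Selp at 0.088 relative to it.

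**Figure D3:**
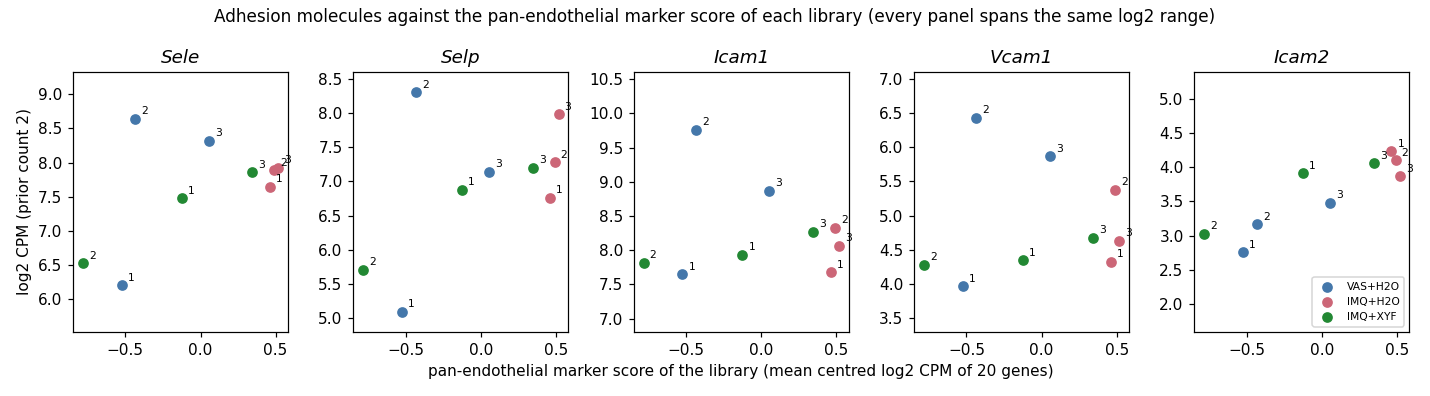
log2 CPM (prior count 2) of each gene against the pan-endothelial score of the library (mean centred log2 CPM of 20 genes), with 1 numbered point per library coloured by group. The IMQ+H2O points sit together at scores of 0.46 to 0.52, Icam2 is lowest in the 3 libraries with the lowest scores, and VAS+H2O replicate 2 stands high for the other 4 genes at a score of −0.43.

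Markers of platelets, keratinocytes, fibroblasts and leukocytes were set beside the same comparison. Of 6 tested platelet markers none was called by edgeR, with 2 at an unadjusted p under 0.05, and their summed level was 49.7 to 74.7 CPM in the control and 40.4 to 73.1 CPM in IMQ+H2O. Of 8 keratinocyte markers none was called, with 1 at an unadjusted p under 0.05, and the summed level was 4107 to 6935 CPM in the control and 2426 to 3636 CPM in IMQ+H2O. Of 8 fibroblast markers none was called, with 2 at an unadjusted p under 0.05, at 14735 to 25628 and 10513 to 17453 CPM. Of 10 macrophage markers none was called, with 6 at an unadjusted p under 0.05, at 766 to 1233 and 1029 to 1535 CPM. Of 8 neutrophil markers 5 were called higher, among them Csf3r, the receptor for G-CSF, at 3.40 ± 0.908 and 39.3 ± 21.1 CPM. Their part in the levels of Icam1, Vcam1 and Selp was not tested.

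The second comparison asked what XYF changed under imiquimod, IMQ+XYF against IMQ+H2O. None of the 5 genes was called by edgeR, none had an unadjusted p under 0.05 in it, against 11.7% of all genes, and DESeq2 and limma-voom called none. edgeR called 0.00892% of all tested genes and DESeq2 1.14%, so that calls were rare everywhere. The groups overlapped for all 5 genes, against 18% of all genes without overlap. All 5 estimates were below 0, with a median of −0.40 beside 0.0054 over all tested genes, and the 95% intervals of all 5 held 0.

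Selp had the largest estimate of the 5, from 172 ± 73.6 to 106 ± 48.5 CPM (log2 fold change −0.70, SE 0.70, 95% interval −2.28 to 0.88, edgeR adjusted p = 0.703). Sele went from 227 ± 23.2 to 167 ± 70.4 CPM (−0.44, SE 0.54, −1.65 to 0.78, edgeR adjusted p = 0.77). Vcam1 was at −0.40 (SE 0.52, −1.58 to 0.77, edgeR adjusted p = 0.779) and Icam2 at −0.34 (SE 0.28, −0.98 to 0.29, edgeR adjusted p = 0.638). Icam1 had nearly equal means of 265 ± 58.5 and 259 ± 43.3 CPM (−0.030, SE 0.43, −1.02 to 0.95, edgeR adjusted p = 0.983). The intervals of Sele, Selp, Icam1 and Vcam1 reach past a halving of the level on the lower side and to at least 0.77 on the upper side (log2 scale), and a p above the limit does not show that the groups were alike.

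IMQ+XYF replicate 2 was the lowest library of its group for all 5 genes, narrowly for Icam1 and Vcam1, and also had the lowest endothelial score. The share of all genes lowest in this library was not counted. Without it Sele was at −0.12, Selp at −0.35 and Icam2 at −0.060. Without IMQ+XYF replicate 3 Sele was at −0.74 and Icam2 at −0.53. Libraries of IMQ+H2O moved the estimates too, with Selp at −0.29 without replicate 3 and Vcam1 at −0.039 without replicate 2 and −0.61 without replicate 1. The 20 pan-endothelial markers had a median log2 fold change of −0.63 in this comparison, with none called by edgeR, 8 at an unadjusted p under 0.05, all lower, and 12 with groups that did not overlap, all lower, against 8.74% of all genes. Their summed level was 953 to 2069 CPM in IMQ+XYF and 2248 to 2361 CPM in IMQ+H2O. Subtracting the endothelial score, which was lower in IMQ+XYF, moves genes of every kind upward. Minus that score Selp was at −0.067, Icam1 at 0.66 (exact permutation p = 0.1, the smallest that 3 against 3 libraries allow), Vcam1 at 0.33 (exact permutation p = 0.4), Icam2 at 0.28 (exact permutation p = 0.2) and Sele at 0.15 (exact permutation p = 0.3). In the edgeR fit scaled to the endothelial markers the median of all genes was 0.75, and relative to it all 5 genes were below 0, Sele at −0.60, Selp at −0.88, Icam1 at −0.084, Icam2 at −0.48 and Vcam1 at −0.45.

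**Figure D4:**
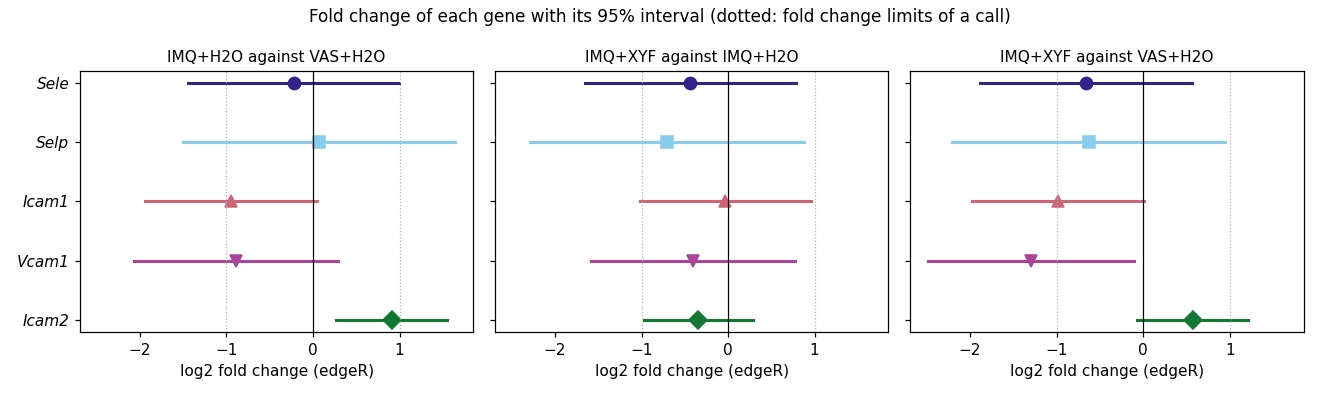
edgeR log2 fold change of the 5 genes (points) with its 95% interval (bars) in the 3 comparisons, with dotted lines at the fold change limits of −1 and 1. Of the 15 intervals only those of Icam2 in IMQ+H2O against VAS+H2O, from 0.27 to 1.55, and of Vcam1 in IMQ+XYF against VAS+H2O, from −2.48 to −0.10, leave out 0.

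The treated group was also compared with the control, IMQ+XYF against VAS+H2O, which shares its libraries with the other comparisons. None of the 5 genes was called by edgeR, DESeq2 or limma-voom, where edgeR called 1.2% and DESeq2 3.46% of the genes tested, and none had groups without overlap, against 22.1% of all genes. Vcam1 alone had an unadjusted p under 0.05, against 18.3% of all genes. It was 2.45-fold lower, from 53.4 ± 35.7 to 21.8 ± 3.30 CPM (log2 fold change −1.29, SE 0.52, 95% interval −2.48 to −0.10, edgeR adjusted p = 0.235), with VAS+H2O replicate 1 below all 3 treated libraries. Without VAS+H2O replicate 2 Vcam1 was at −0.76, Icam1 at −0.37, Sele at −0.24 and Selp at 0.27. Sele and Selp were at −1.10 and −1.11 without VAS+H2O replicate 1 and at −0.31 and −0.25 without IMQ+XYF replicate 2. Icam2 ran from 0.38 without IMQ+XYF replicate 3 to 0.87 without IMQ+XYF replicate 2. Icam1 was at −0.98 (SE 0.44, edgeR adjusted p = 0.277), Sele at −0.66 (SE 0.54, edgeR adjusted p = 0.583) and Selp at −0.63 (SE 0.70, edgeR adjusted p = 0.701). Icam2 was at 0.57 (SE 0.28, edgeR adjusted p = 0.322), with IMQ+XYF replicates 1 and 3 above every control library. The median over the 5 genes was −0.66, beside −0.024 over all genes.

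The integrins of leukocytes that bind these molecules were examined beside them. Of 10 tested integrin chains and integrin-activating genes, 2 were called in IMQ+H2O against VAS+H2O, both higher. Itgam, the alpha chain of Mac-1, which binds Icam1, was at 4.68, 12.3 and 10.1 CPM in the control, 41.7, 66.6 and 49.9 CPM in IMQ+H2O and 80.3, 68.2 and 46.5 CPM in IMQ+XYF. Itgb2, the beta2 chain shared by LFA-1 and Mac-1, was at 18.1, 25.1 and 17.5 CPM, at 44.8, 67.5 and 57.7 CPM and at 46.4, 47.8 and 43.0 CPM. For both genes no control library reached any imiquimod library. Itgam rose by imiquimod with a log2 fold change of 2.55 (SE 0.36, edgeR adjusted p = 0.0247) and Itgb2 with 1.49 (SE 0.18, edgeR adjusted p = 0.0164). Both were called again in IMQ+XYF against VAS+H2O, at 2.85 (edgeR adjusted p = 0.0173) and 1.18 (edgeR adjusted p = 0.0273). With XYF none of the 10 was called or had an unadjusted p under 0.05 in edgeR, and their median was −0.13.

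Selectin ligands and their modifying enzymes formed a list with 16 tested genes, whose median log2 fold change by imiquimod was 0.0052. Tpst1, a tyrosine sulfotransferase of the kind that modifies the selectin ligand PSGL-1, was at 68.4 ± 7.35 and 47.0 ± 2.63 CPM in VAS+H2O and IMQ+H2O (log2 fold change −0.54, SE 0.14, edgeR adjusted p = 0.0855). In the XYF comparison none of the 16 was called by edgeR, with 1 higher and 3 lower at an unadjusted p under 0.05. The smallest p among them were those of Tpst2, at −0.56 (SE 0.18, edgeR adjusted p = 0.364), and of Selplg, which encodes PSGL-1, at −0.75 (SE 0.25, edgeR adjusted p = 0.371), with values of 17.2, 25.6 and 32.2 CPM in IMQ+H2O and 15.2, 14.7 and 14.6 CPM in IMQ+XYF.

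Among 14 other vascular adhesion and junction molecules none was called by imiquimod in edgeR, with 4 higher and 1 lower at an unadjusted p under 0.05 and a median of 0.22. Pecam1, Cdh5 and Esam are also in the pan-endothelial list and Vwf is also in the venular list, so these are not separate observations. Mcam, an endothelial and pericyte adhesion molecule, was at 76.8 ± 23.7 and 153 ± 10.2 CPM (log2 fold change 1.0, SE 0.29, edgeR adjusted p = 0.114), and Pecam1, through which leukocytes pass cell junctions, at 246 ± 57.7 and 443 ± 6.81 CPM (0.85, SE 0.31, edgeR adjusted p = 0.175). With XYF none was called by edgeR and 2 were lower at an unadjusted p under 0.05, Jam2 at −0.75 (SE 0.28, edgeR adjusted p = 0.386) and Vwf at −0.80 (SE 0.33, edgeR adjusted p = 0.404). Against VAS+H2O, IMQ+XYF had no called gene of the 14 in edgeR and none at an unadjusted p under 0.05, with Mcam at 0.60 and Cd99l2 at −0.27.

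Of 24 inducers and NF-kB feedback genes none was called by imiquimod in edgeR, with 5 higher and 1 lower at an unadjusted p under 0.05 and a median of 0.37. The smallest p were those of the receptors for TNF and lymphotoxin, Tnfrsf1a at 0.59 (SE 0.13, edgeR adjusted p = 0.069) and Ltbr at 0.41 (SE 0.10, edgeR adjusted p = 0.0854). With XYF none was called by edgeR, and Icosl at −0.66 (SE 0.23, edgeR adjusted p = 0.379) and Traf1 at −0.77 (SE 0.30, edgeR adjusted p = 0.396) had the smallest p. edgeR called none in IMQ+XYF against VAS+H2O and 4 were higher at an unadjusted p under 0.05, led by Il1a at 1.03 ± 1.26 and 11.3 ± 5.69 CPM (3.49, SE 0.85, edgeR adjusted p = 0.0744) and Tnfrsf1a at 0.52 (SE 0.13, edgeR adjusted p = 0.0848).

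Of 11 genes linked to the control of endothelial activation or to the shedding of adhesion molecules, 1 was called by imiquimod. Not all of them restrain activation, as the list also holds Angpt2. It was Nos3, the endothelial nitric oxide synthase, at 26.7, 33.1 and 44.5 CPM in the control, 91.1, 94.7 and 99.8 CPM in IMQ+H2O and 57.9, 38.3 and 84.7 CPM in IMQ+XYF (log2 fold change by imiquimod 1.45, SE 0.28, edgeR adjusted p = 0.0478). In all 5 were higher and 2 lower at an unadjusted p under 0.05. The lower genes were the transcription factor genes Klf2 at −0.68 (SE 0.27, edgeR adjusted p = 0.193) and Klf4 at −0.69 (SE 0.22, edgeR adjusted p = 0.141), which restrain endothelial activation and are named after their values were seen. S1pr1, a sphingosine-1-phosphate receptor that tightens junctions, had a log2 fold change of 0.83 (SE 0.22, edgeR adjusted p = 0.0909), with 161 ± 1.15 CPM in IMQ+H2O. With XYF none of the 11 was called by edgeR and 2 were lower at an unadjusted p under 0.05, S1pr1 at −0.61 (SE 0.21, edgeR adjusted p = 0.379) and Nos3 at −0.66 (SE 0.28, edgeR adjusted p = 0.409). Between IMQ+XYF and VAS+H2O edgeR called none and 3 were higher at an unadjusted p under 0.05, with Adam8, a metalloprotease that sheds surface proteins, at 1.18 (SE 0.35, edgeR adjusted p = 0.117) and Thbd at 0.40 (SE 0.14, edgeR adjusted p = 0.168).

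Among the 5 genes, Icam1 with Vcam1 and Sele with Selp had the nearest profiles over the 9 libraries. Profiles are compared here by the root mean square distance between centred log2 CPM values. Icam1 and Vcam1 were 0.243 log2 units apart, and of 14507 candidate genes 1 was nearer to Icam1 and 1 nearer to Vcam1. Sele and Selp were 0.361 apart, and none of the candidates was nearer to Selp and 16 were nearer to Sele. Icam2 was 0.673 to 0.942 from the other 4. Across the pairs, Sele was 0.458 from Vcam1 and 0.476 from Icam1, and Selp was 0.681 and 0.685 from them. Within each pair the ratio varied less than the levels, with CPM of Icam1 at 7.73 to 12.9 times that of Vcam1 and CPM of Sele at 0.960 to 2.27 times that of Selp over the 9 libraries. In contrast the CPM of Icam1 was 29.9, 97.4 and 42.1 times that of Icam2 in VAS+H2O. The ratio of Icam1 to Icam2 was 10.9 to 18.8 in IMQ+H2O and 16.3 to 27.8 in IMQ+XYF. Its lowest control value, 29.9, was narrowly above its highest imiquimod value, 27.8. The ratio of Sele to Icam2 did not separate the groups, as VAS+H2O replicate 1 lay within the range of the imiquimod libraries. How many other gene pairs separate the groups was not counted.

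**Figure D5:**
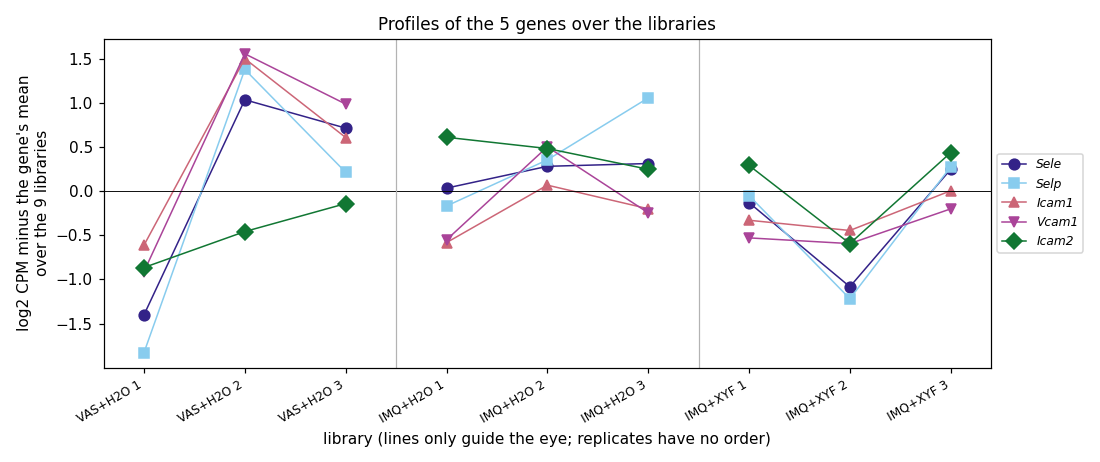
log2 CPM of each gene minus its mean over the 9 libraries, by library and in group order, with lines only to guide the eye. Icam1 runs with Vcam1 and Sele with Selp, VAS+H2O replicate 1 is low and replicate 2 high for these 4 genes, and Icam2 follows another course with its highest values in IMQ+H2O.

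The genes nearest to each profile were named by the same distance among genes of at least 1 CPM. Rnd1, a small GTPase, was the nearest to both Icam1, at 0.230, and Vcam1, at 0.197, with 94.0 ± 58.6 CPM in VAS+H2O, 58.3 ± 20.6 CPM in IMQ+H2O and 53.4 ± 10.2 CPM in IMQ+XYF. Next to Icam1 came the receptor gene Tlr2 at 0.265 and the clock-controlled Noct at 0.266, and next to Vcam1 the G protein regulator Rgs16 at 0.277 and the cytokine gene Il13 at 0.30. Sele was nearest to Casp4, an inflammatory caspase, at 0.265, to Ifi207 at 0.303 and to Ccrl2, a chemerin-binding receptor, at 0.310. Selp was nearest to Gpr65 at 0.395, Asb4 at 0.400 and Ifi207 at 0.425. Icam2 had much nearer neighbours, Sema7a, a membrane-bound semaphorin, at 0.129, Gpr4, a proton-sensing receptor of endothelium, at 0.141 and Gimap9 at 0.151. Sema7a stood at 30.6 ± 9.79 CPM in VAS+H2O, 52.1 ± 2.80 CPM in IMQ+H2O and 39.9 ± 12.9 CPM in IMQ+XYF. The points share libraries and depth, and a small spread of a gene itself gives small distances, with an SD over the libraries of 0.533 log2 units for Icam2 and 1.01 for Selp.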

How the data were processed

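Messenger RNA of mouse ear dermis was sequenced in 9 libraries, 3 per group. Deposited values were raw counts of reads per Ensembl gene, which the authors obtained from reads aligned with STAR to GRCm38. The submitters' processing notes name STAR 2.5, FastQC, Cuffnorm and DESeq 1.22.1, while the study's methods name StringTie and DESeq2, and the counting tool is not given in the sources used here. The methods state RNA from ear sheets of more than 1 mouse, and whether a library pooled mice is not clear from them.

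Counts were filtered by filterByExpr, scaled by TMM and tested with edgeR 4.0.16 (R 4.3.3) in a single quasi-likelihood model of the 9 libraries by group, with a common coefficient of variation of 0.296 between libraries. The limits of a call are those of the study's methods. P-values were adjusted by Benjamini-Hochberg over 22430 genes. The SE was obtained from the fold change and its F statistic. DESeq2 1.42.0 and limma-voom (limma 3.58.1) were among the alternatives, with edgeR scaled by DESeq2 size factors, unfiltered counts, fits of only the groups compared, a replicate block, scaling to endothelial markers and leaving out each library. The procedure was tested on simulated data. Floors of 3 counts cover counting error alone, as reads without molecular identifiers are not independent molecules.

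The 5 genes and the gene lists were chosen with earlier results of these data known. All 202 listed symbols were matched. Some genes stand in more than 1 list, among them Pecam1, Cdh5, Esam, Emcn, Tek, Vwf and Ackr1. The symbol Itgam was held by 2 rows, of which the one with the higher summed count was used. Named genes were the 5, the 3 with the nearest profile to each (at least 1 CPM, no Gm or Rik symbols), the called genes of each list or otherwise its 2 smallest p, and cell type markers. A list of 13 immediate early and heat shock genes was added after values were seen. Positions are from GENCODE vM21 and promoters from RefSeq GRCm38.p6. The values of 1 listed gene are not reported here.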

Additional observations from a re-analysis of the deposited data

How the results depend on the processing

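None of the 5 genes was called in any comparison under any alternative, except that 2, Icam1 and Vcam1, were called lower by imiquimod with libraries scaled to the endothelial markers, at −1.76 and −1.67. Of 240 alternative values of single genes 223 kept their direction and their side of the threshold. By imiquimod, Sele turned to 0.099 with limma-voom and ran from −0.67 to 0.20 over the fits with 1 library left out, and Selp turned to −0.74 with endothelial scaling and ran from −0.41 to 0.97. By XYF, endothelial scaling turned Sele to 0.15, Icam1 to 0.67, Icam2 to 0.27 and Vcam1 to 0.30, where it moved the median of all genes to 0.75, above each of these values, and Icam1 was at 0.037 with the replicate block and from −0.18 to 0.14 with 1 library left out. Selp ran in IMQ+XYF against VAS+H2O from −1.11 to 0.27. The cause of these changes was not tested.

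Replicate numbers did not pair the libraries. Deviations from group means correlated at −0.183 to 0.125 between libraries of the same number, with 1 of 9 pairs above 0.1, and at −0.161 to 0.277 between others. The block changed no call among the 5 genes.

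Numbers of called genes over the whole table moved more. By imiquimod 223 genes were called, against 945 with DESeq2, 496 with only the groups compared, 104 with limma-voom, 86 with the block and 4130 with endothelial scaling, and 25 to 455 with 1 library left out. By XYF the number was 2, against 223 with DESeq2, 66 with endothelial scaling, 1 with limma-voom, 1 with only the groups compared and 0 with the block, and 0 to 4 with 1 library left out. For IMQ+XYF against VAS+H2O it was 270, against 701, 135 with limma-voom, 54 with the block and 33 with only the groups compared, and 12 to 592 with 1 library left out.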

Other observations

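A list of 13 immediate early and heat shock genes, added after values were seen, had a median log2 fold change of −0.71 in IMQ+H2O against VAS+H2O, with none called by edgeR and 9 lower at an unadjusted p under 0.05. In the same comparison the lists of 6 lymphatic, 9 pericyte and smooth muscle, 8 T cell and 8 skeletal muscle markers held no called gene in edgeR, with 2, 3, 2 and 0 genes at an unadjusted p under 0.05 and medians of 0.27, 0.07, −0.32 and 0.19. All 7 tested cartilage markers were lower at an unadjusted p under 0.05 and without overlap, with a median of −1.86 and summed levels of 1004 to 1769 CPM in VAS+H2O and 282 to 463 CPM in IMQ+H2O, and 2 were called, Col2a1 at −2.70 and Matn3 at −2.48. Under XYF against IMQ+H2O no gene of any marker list was called by edgeR, with medians of −0.66 for venular, −0.65 for lymphatic, −0.71 for pericyte and smooth muscle, −1.72 for skeletal muscle, 1.38 for keratinocyte and 1.5 for cartilage markers, and 0.49 for the immediate early and heat shock genes. In IMQ+XYF against VAS+H2O the called markers were Cd4, lower at −1.74, and the neutrophil genes S100a8, S100a9, Csf3r and Stfa2l1, all higher. Their part in the levels of the 5 adhesion molecules was not tested.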
